A study of Mus musculus with 9 samples.

Results

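The BCL2 family decides, at the surface of mitochondria, whether a stressed cell survives or dies by apoptosis. Transcripts of 10 of its genes (Bcl2, Bcl2l1, Mcl1, Bax, Bak1, Bid, Bcl2l11, Bbc3, Pmaip1 and Bnip3) were followed here in mouse heart tissue. Their rows were found by gene symbol. All 10 were found among the 53465 gene IDs of the count data, each by 1 Ensembl ID.

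The RNA-seq libraries came from hearts of NOD-SCID mice, a strain that lacks mature T and B cells, so every group shares that immune defect. Of the 9 libraries, 3 were from sham-operated hearts, 3 from hearts after coronary artery ligation, which cuts off blood flow to part of the ventricle, and 3 from ligated hearts implanted with FOXO3-GE-MPCs. These are called the sham, ligation and cell groups. The labels give the region as the infarct border zone throughout, and they give no age, sex, time after surgery or cell dose. FOXO3-GE-MPCs are, in the study behind these data, mesenchymal progenitor cells of human origin with an engineered FOXO3 gene; reads from such cells were not separated from mouse reads here. For cell replicates 2 and 3, the FOXO number in the source field differs from that in the title and treatment fields, and the latter were followed. The labels do not say whether replicates were separate animals, so the p-values below measure the spread between these libraries only.

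As background, the family has guardians, effectors and triggers. The guardians Bcl2, Bcl2l1 (encoding BCL-XL) and Mcl1 hold the effectors Bax and Bak1 in check, and free effectors punch holes in the outer mitochondrial membrane that release cytochrome c. The BH3-only triggers Bid, Bcl2l11 (BIM), Bbc3 (PUMA) and Pmaip1 (NOXA) neutralise guardians or activate effectors. Bnip3 is a BH3-like protein of the mitochondrial membrane, induced by low oxygen and known for tagging mitochondria for autophagy. Cardiomyocytes depend on Mcl1 in particular. Much of the family's control lies in protein turnover and location, which transcript counts do not show.

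Libraries held 4549268 to 7515052 gene counts, the smallest being ligation replicate 1. Mitochondrially encoded genes took 19.1% to 19.9% of gene counts in sham, 12.5% to 13.9% in ligation and 14.3% in each cell library. Heart markers fitted the label, with 45705 to 60816 CPM (counts scaled to a library size of 1e+06 with TMM factors) over 8 cardiomyocyte genes in every library. File headers give sham replicates 1 and 2 the same sample name, and likewise ligation replicates 2 and 3. The mean chi-square per gene between such libraries was 3.96 and 2.30, above the value of about 1 that counting error alone gives. Over all pairs within a group that value ran from 1.98 to 3.96. They are thus not 1 set of reads counted again, but the value does not show whether they came from separate hearts. All 9 libraries were kept, and counts of calls are also given with the libraries of 1 header name summed. A gene was called when its adjusted p in edgeR's quasi-likelihood test, taken over 13825 tested genes, was under 0.05. All 10 members passed the filter on low counts.

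After ligation, 5 of the 10 members were higher than in sham and 0 were lower: the guardians Bcl2, Bcl2l1 and Mcl1, the trigger Pmaip1, and Bnip3. Neither effector was called. At an unadjusted p under 0.05 in edgeR, and by DESeq2 or limma-voom, the numbers were again 5 higher and 0 lower. Among all genes tested 38.2% were called in this comparison, 20.1% as higher and 18% as lower. The CPM ranges of the groups were apart in 7 of 10 members and in 47.6% of all genes. Ligated hearts with cells differed from ligation alone in 2 of the 10 members, Bcl2l1 and Bnip3, both lower with cells, against 9.87% of all genes called, 4.19% called higher and 5.69% called lower. Ranges were apart in 5 of 10 members and in 27.2% of all genes. None of the members was higher by edgeR, at an unadjusted p under 0.05 (0 higher, 4 lower), by DESeq2 or by limma-voom (0 higher, 2 lower in each). Relative to sham, the cell group had Bcl2, Mcl1 and Bnip3 higher and Bax lower, 4 of 10 members, against 40.9% of all genes called, 21% as higher and 20% as lower. Ranges were apart in 6 of 10 members and in 49.8% of all genes. The share of members called after ligation and in the cell group against sham was thus close to that of all genes. With libraries of 1 header name summed the numbers were again 5, 2 and 4 of 10. Scaling by library totals instead of TMM moved the median log2 fold change of all genes by 0.19, -0.03 and 0.16 in the 3 comparisons, and the share of higher genes among those called from 52.7%, 42.4% and 51.2% to 78.7%, 32.0% and 73.1%. Member counts were 5, 2 and 4 with that scaling too. The comparisons share libraries and are not independent of each other.

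**Figure D1:**
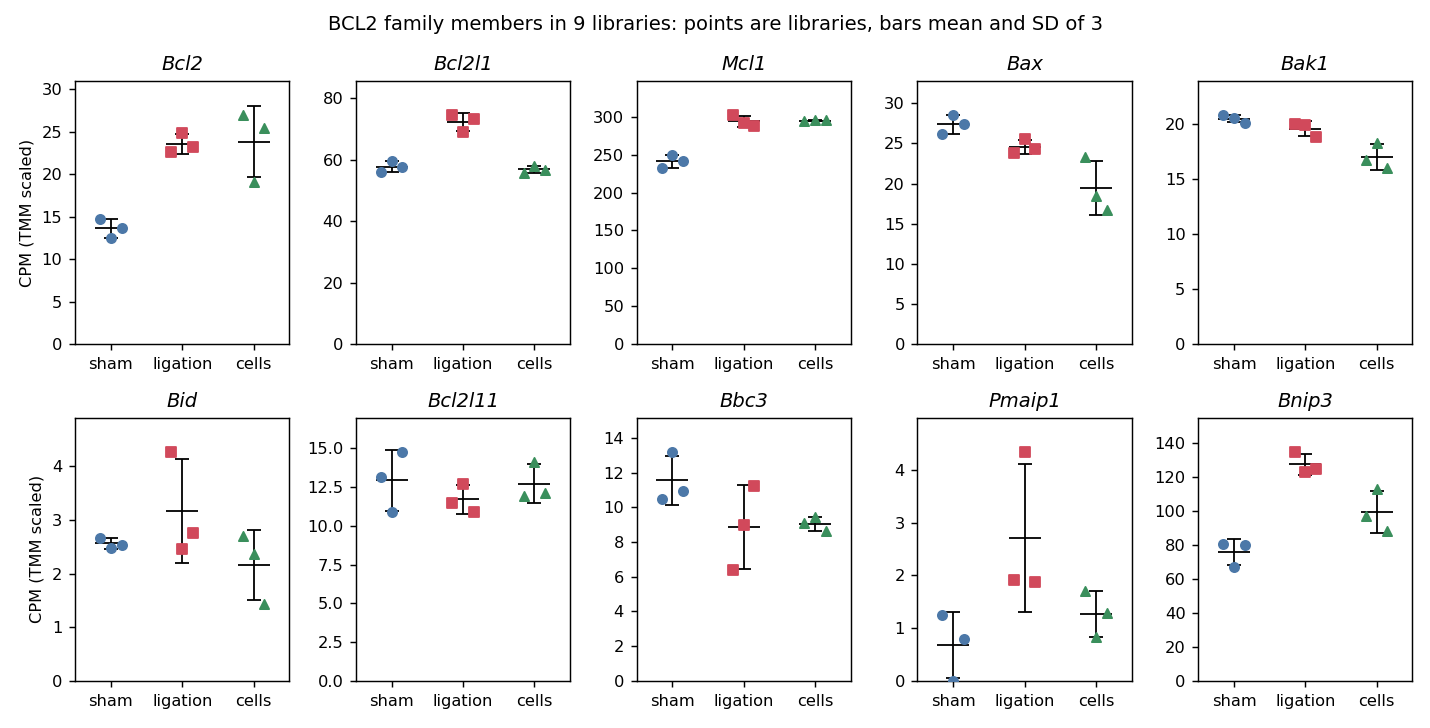
CPM (TMM scaled, y axis from 0) of each of the 10 members in the 3 sham (circles), 3 ligation (squares) and 3 cell (triangles) libraries, with mean and SD. Bcl2, Mcl1 and Bnip3 lie above sham in both ligated groups, Bcl2l1 only in ligation, and Bax has its lowest values with cells.

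Levels can be ranked between genes only per length, here as CPM per kilobase of exons. In sham, Mcl1 stood highest at 70.6 ± 2.47 (SD, n = 3), followed by Bnip3 at 33.5 ± 3.43, Bax at 17.4 ± 0.743, Bcl2l1 at 12.6 ± 0.374, Bak1 at 8.53 ± 0.140 and Bbc3 at 5.44 ± 0.675. Low levels were found for Bcl2l11 at 1.61 ± 0.244, Bcl2 at 1.49 ± 0.123, Bid at 0.721 ± 0.0284 and Pmaip1 at 0.249 ± 0.231. The only neighbours in this order whose sham libraries overlapped were Bcl2l11 and Bcl2. In ligation Bcl2l1 (15.7 ± 0.632) and Bax (15.6 ± 0.583) overlapped, and Bcl2 (2.57 ± 0.129) lay above Bcl2l11 (1.46 ± 0.118) in every library. Among the guardians, Mcl1 stood far above Bcl2 per length in all 9 libraries, its lowest value being 67.95 and the highest of Bcl2 2.94.

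Bcl2, the founding guardian, is on chromosome 1 (mm10, 106538178 to 106714274, minus strand). It measured 14.8, 12.5 and 13.7 CPM in sham replicates 1 to 3, 22.6, 24.9 and 23.3 in ligation, and 26.9, 19.1 and 25.5 with cells. Every library of either ligated group was above every sham library, and the ligation and cell ranges overlapped. It rose 1.73-fold after ligation (log2 fold change 0.79, SE 0.139, edgeR adjusted p 0.000111) and was 1.75-fold higher with cells than in sham (0.81, SE 0.137, edgeR adjusted p 7.71e-05). Between cells and ligation the log2 difference was 0.01 (SE 0.125, edgeR adjusted p 0.967).

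Mcl1, a short-lived guardian, is on chromosome 3 (mm10, 95658788 to 95663176, plus strand). Its libraries read 232, 249 and 242 CPM in sham, 302, 292 and 287 in ligation, and 293.9, 295.3 and 295.3 with cells. The pattern was that of Bcl2 at a smaller size, with both ligated groups above sham and overlapping each other. The rise after ligation was 1.22-fold (log2 fold change 0.28, SE 0.0477, edgeR adjusted p 7.49e-05), and against sham the cell group gave 0.29 (SE 0.0476, edgeR adjusted p 5.17e-05). With cells the log2 difference from ligation was 0.01 (SE 0.0472, edgeR adjusted p 0.954). Mcl1 had 1305 to 2299 counts per library, the most of any member, and the smallest SE.

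Bcl2l1, whose main product BCL-XL protects many cell types, red cell precursors among them, is on chromosome 2 (mm10, 152780668 to 152831728, minus strand). It was at 56.1, 59.5 and 57.5 CPM in sham, at 74.4, 68.9 and 73.3 in ligation, and at 55.7, 57.8 and 56.8 with cells. Only the ligation libraries were high, and the sham and cell ranges overlapped. Bcl2l1 rose 1.25-fold after ligation (log2 fold change 0.32, SE 0.0660, edgeR adjusted p 0.000585) and fell by 0.34 on the log2 scale with cells (SE 0.0650, edgeR adjusted p 0.00125). Cells against sham gave -0.02 (SE 0.0668, edgeR adjusted p 0.813). Gene counts do not tell its long, protective and short, death-promoting splice forms apart.

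The effector Bax lies on chromosome 7 (mm10, 45461697 to 45466898, minus strand). It measured 26.2, 28.5 and 27.5 CPM in sham, 23.9, 25.6 and 24.3 in ligation, and 23.3, 18.4 and 16.7 with cells. The groups did not overlap pairwise, but cell replicate 1 was close to the ligation libraries. After ligation the log2 difference from sham was -0.15 (SE 0.117, edgeR adjusted p 0.324), and with library totals in place of TMM it turned positive without passing. Against sham, Bax fell by 0.49 on the log2 scale in the cell group (SE 0.119, edgeR adjusted p 0.00229). Against ligation the cell group gave -0.34 (SE 0.119, edgeR adjusted p 0.0826), which did not pass. It passed only without cell replicate 1, at -0.48 (edgeR adjusted p 0.0149).

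Bak1, the effector restrained mainly by Mcl1 and BCL-XL, is on chromosome 17 (mm10, 27019810 to 27029009, minus strand). Its CPM values were 20.8, 20.6 and 20.2 in sham, 20.03, 19.97 and 18.9 in ligation, and 16.7, 18.3 and 15.99 with cells. The 3 groups did not overlap, yet no comparison passed: the log2 differences were -0.07 for ligation against sham, -0.20 for cells against ligation and -0.27 for cells against sham (SE 0.113 in each, edgeR adjusted p 0.677, 0.309 and 0.0639). The first turned positive with library totals. Of Bak1's exon bases, 25.5% overlap Ggnbp1 on the opposite strand, and the strand setting of the counting is not given in the sources used here. Ggnbp1 itself had 21.3 to 24.7 CPM in the sham libraries, 9.63 to 12.997 in those after ligation and 12.8 to 14.01 in the cell group; its part in the Bak1 values was not tested.

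The BH3-only genes were scarce, and 3 of the 4 were not called in any comparison. Bid (chromosome 6, mm10, 120891930 to 120916853, minus strand), which carries death-receptor signals to mitochondria, had 10 to 22 counts per library, or 2.47 to 2.67 CPM in sham, 2.46 to 4.26 in ligation and 1.44 to 2.69 with cells. Bcl2l11 (chromosome 2, 128126038 to 128162547, plus strand) measured 13.2, 10.9 and 14.8 CPM in sham, 11.5, 12.7 and 10.9 in ligation, and 11.9, 14.1 and 12.1 with cells, with every pair of groups overlapping. Its log2 differences were -0.15 (SE 0.156) after ligation, 0.12 (SE 0.153) for cells against ligation and -0.02 (SE 0.152) for cells against sham, the smallest edgeR adjusted p being 0.496. The first and last turned positive with library totals. Bbc3 (chromosome 7, 16308393 to 16318205, plus strand) was at 10.5, 13.2 and 10.95 CPM in sham, 6.39, 8.97 and 11.3 in ligation, and 9.08, 9.43 and 8.64 with cells. Ligation replicate 3 reached the sham range while the other two ligation libraries lay under it, and the edgeR adjusted p against sham was 0.166 with all libraries and 0.0380 without that one (log2 fold change -0.34 and -0.57).

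Pmaip1 was the rarest member. It had 7, 0 and 5 counts in sham, 9, 30 and 15 in ligation, and 12, 6 and 9 with cells. In CPM these were 1.25, 0 and 0.794 in sham, 1.92, 4.34 and 1.88 in ligation, and 1.70, 0.832 and 1.30 with cells. The 0 in sham replicate 2 allows up to 0.494 CPM, taking 3 counts as the limit of detection. Every ligation library lay above every sham and cell library, with ligation replicate 2 far above the rest. The fitted rise after ligation was 2.01 on the log2 scale (SE 0.592, edgeR adjusted p 0.0107). It did not pass without sham replicate 2 (1.43, edgeR adjusted p 0.0507) or without ligation replicate 2 (1.48, edgeR adjusted p 0.103). Cells against ligation gave -1.10 (SE 0.506, edgeR adjusted p 0.200) and cells against sham 0.91 (SE 0.664, edgeR adjusted p 0.292).

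Bnip3 is on chromosome 7 (mm10, 138890836 to 138909519, minus strand). It stood at 80.8, 66.9 and 79.8 CPM in sham, at 134.9, 123 and 125.0 in ligation, and at 97.2, 113 and 88.6 with cells. The 3 groups did not overlap and the cell libraries lay between the other two. It rose 1.68-fold after ligation (log2 fold change 0.75, SE 0.0856, edgeR adjusted p 5.62e-07), the smallest adjusted p among the members. With cells it fell by 0.35 on the log2 scale (SE 0.0827, edgeR adjusted p 0.00760) and stayed 1.31-fold above sham (0.39, SE 0.0861, edgeR adjusted p 0.000943). Without cell replicate 3, the lowest of its group, the decrease was 0.28 and did not pass, at an edgeR adjusted p of 0.0588, so that 1 of 10 members was then called for cells against ligation. Of the 31-base words in Bnip3 transcripts, 57.0% also occur in another gene, chiefly AC160336.1, so its counts are uncertain to that extent. AC160336.1 itself had 0.142 to 1 CPM.

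Promoter sequences show where well-known motifs lie in front of the genes just described. RefSeq promoters (GRCm38.p6, the assembly of mm10) were at hand for 9 of the 10 members, at 14 start sites, and the 250 bases before each start were searched on both strands. The motifs were the FOXO site GTAAACA, the hypoxia-response core ACGTG, and the E-box CACGTG, a palindrome that contains the hypoxia core on each strand. The E-box was found before Bnip3, Bax and 1 of 3 Bbc3 starts. In each case it accounted for the hypoxia-core matches there. The FOXO site was found before 1 of 2 Bcl2l11 starts and 1 of 3 Bbc3 starts. Among all 32851 promoters in the table, 6.02% hold the E-box, 16.6% the hypoxia core and 3.17% the FOXO site. The searched bases before Bcl2, Bcl2l1, Mcl1, Bak1 and Bid hold none of the 3 motifs. Stretches around the matches are printed 5′ to 3′ on the gene's strand, with the motif in capitals, because Bnip3 is the member with the smallest adjusted p, Bax the 1 member called lower with cells than in sham, and Bcl2l11 and Bbc3 are textbook FOXO3 targets:
Bnip3 (chr7:138909567-138909666, minus strand): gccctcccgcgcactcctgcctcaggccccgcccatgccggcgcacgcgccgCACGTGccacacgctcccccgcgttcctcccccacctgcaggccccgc
Bax (chr7:45466899-45466998, minus strand): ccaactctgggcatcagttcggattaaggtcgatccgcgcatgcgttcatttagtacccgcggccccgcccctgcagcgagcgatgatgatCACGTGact
Bcl2l11 (chr2:128125788-128125887, plus strand): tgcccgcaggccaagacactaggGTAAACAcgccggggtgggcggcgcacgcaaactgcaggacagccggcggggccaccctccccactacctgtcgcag
Bbc3 (chr7:16310083-16310112, plus strand): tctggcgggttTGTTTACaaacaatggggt

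The E-box starts 108 bases before the Bnip3 start and 9 bases before the Bax start. The FOXO site starts 227 bases before the Bcl2l11 start and, in its reverse complement TGTTTAC, 167 bases before a Bbc3 start. Bnip3 and Bax, which share the E-box, had log2 differences of 0.75 and -0.15 after ligation. A match is a string of letters, not evidence of binding.

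**Figure D2:**
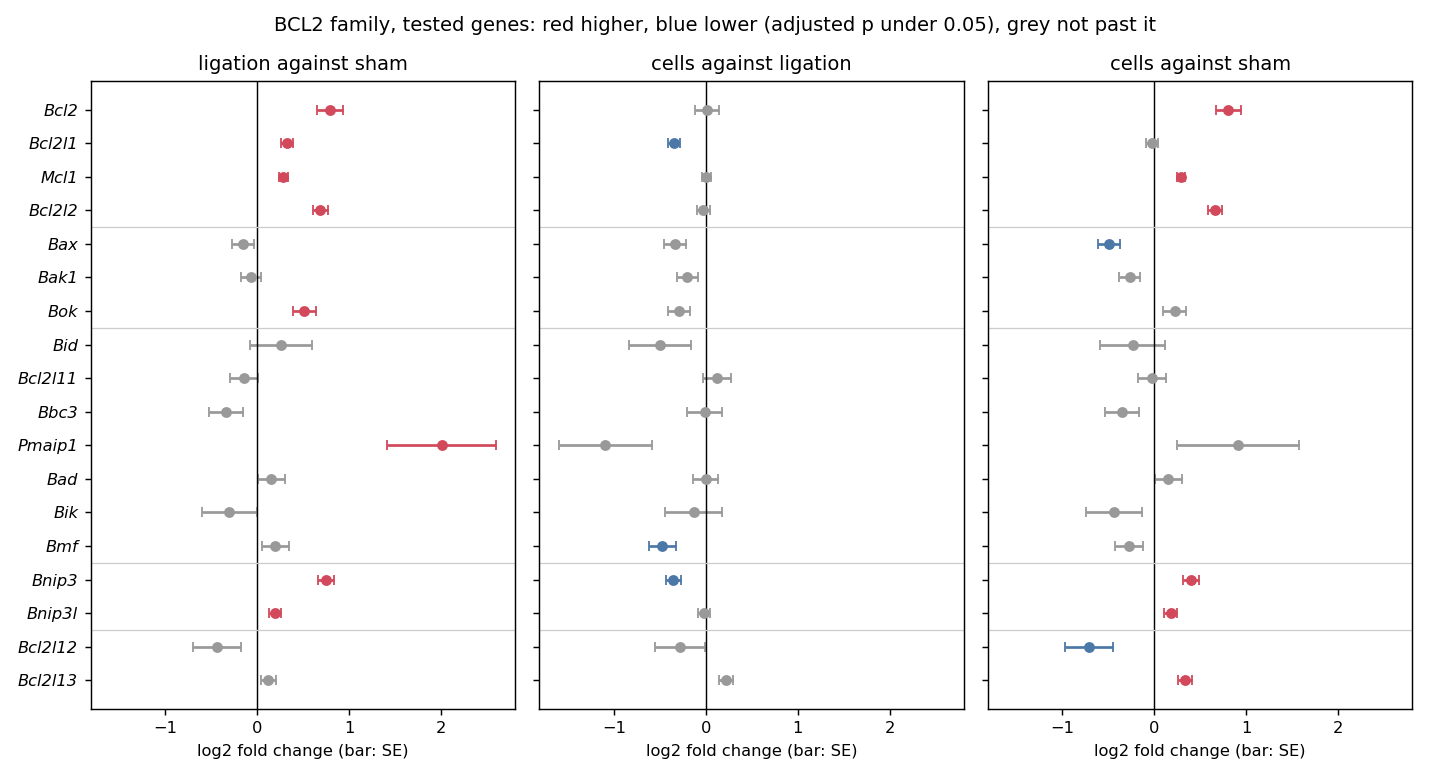
Log2 fold changes with SE (x axis) of the 18 tested BCL2 family genes in the 3 comparisons, in blocks of guardians, effectors, BH3-only genes, BNIP3 types and others. All 4 tested guardians are higher after ligation, and only Bcl2l1 among them is lower with cells than in ligation.

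Pro- and anti-apoptotic members were set against each other within each library, as the read ratio of a pro- to an anti-apoptotic gene, which does not depend on how libraries are scaled. Reads of Bax per read of Bcl2 numbered 1.77, 2.28 and 2.01 in sham, 1.06, 1.03 and 1.04 in ligation, and 0.863, 0.964 and 0.655 with cells. The 3 groups were apart, in the order sham, ligation, cells. On the log2 scale the mean ratio was 1.01 ± 0.181 (SD, n = 3) in sham, 0.06 ± 0.0190 in ligation and -0.29 ± 0.287 with cells. Bak1 to Mcl1 followed the same order without overlap, at -3.55 ± 0.0647, -3.90 ± 0.0306 and -4.12 ± 0.0988. These ratios restate the values of their genes and were not tested.

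The ratios did not all go one way. Over the 21 pairs of a pro-apoptotic member with Bcl2, Bcl2l1 or Mcl1, a full set added after the values were seen, ligation lay below sham in 11, above it in 4 and overlapped it in 6. When each other tested gene was set against the same 3 guardians, 58.1% of pairs lay below and 7.62% above, so a low ratio after ligation was as common among all genes and nothing about the members is read from the 11. The pairs share the 3 guardians, all of them called higher, and are not independent. The 11 were pairs of Bax, Bak1, Bcl2l11 and Bbc3, and the 4 were Bnip3 and Pmaip1 to Bcl2l1 and to Mcl1. Pairs of Pmaip1, in every comparison, rest on only 0 to 30 reads of that gene per library. Reads of Bnip3 per read of Bcl2l1 numbered 1.44, 1.12 and 1.39 in sham, 1.81, 1.79 and 1.71 in ligation, and 1.74, 1.96 and 1.56 with cells, both ligated groups being above sham. For cells against ligation, 15 of the 21 overlapped, 5 were below (Bax to Bcl2, Bak1 to Mcl1, Pmaip1 to Bcl2, Pmaip1 to Mcl1 and Bnip3 to Mcl1) and 1, Bcl2l11 to Bcl2l1, was above, beside 8.23% below and 25% above over all genes. Cells against sham gave 12 below, 1 above and 8 that overlapped, beside 47.7% below and 13% above. The Bax to Bcl2l1 ratio was -1.55 ± 0.112 in ligation and -1.56 ± 0.264 with cells on the log2 scale. By role, 3 of 3 guardians and 2 of 7 pro-apoptotic members were called higher after ligation, beside 20.1% of all genes, so that the share of pro-apoptotic members was near the background. The median log2 fold change was 0.32 for the guardians and 0.01 over all genes tested. For the pro-apoptotic members it was -0.07, which is the value of Bak1 and turned to 0.12 for that gene with library totals. With relatives included, the pro-apoptotic median was 0.17, with 4 of 12 tested genes called higher.

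**Figure D3:**
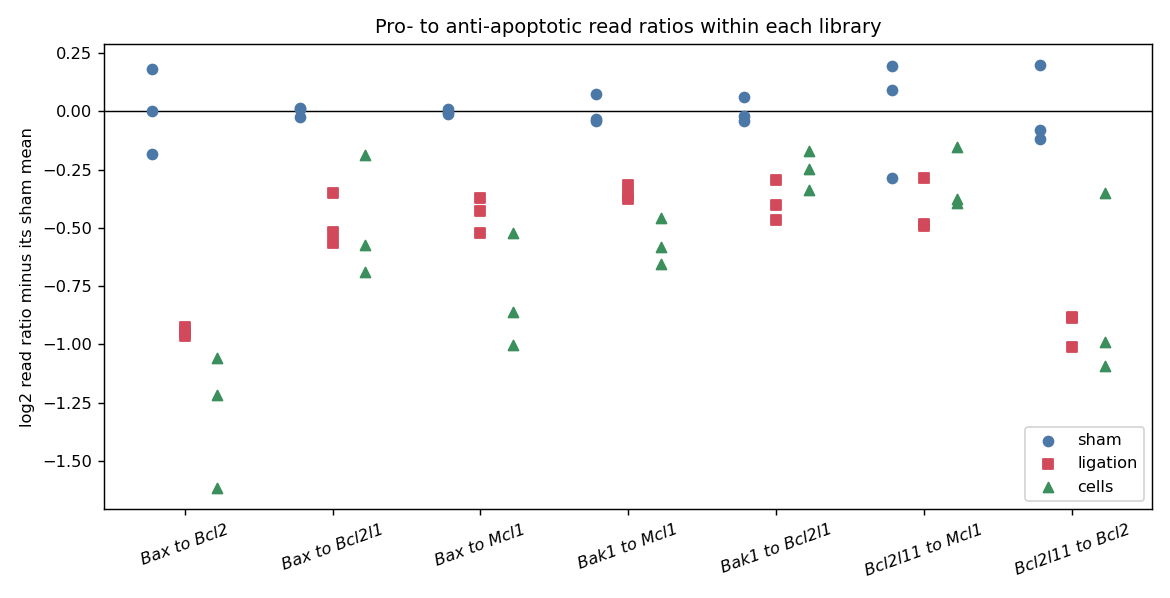
Log2 read ratio of a pro- to an anti-apoptotic gene in each of the 9 libraries (y axis, relative to the sham mean of that ratio) for 7 pairs of Bax, Bak1 or Bcl2l11 with a guardian. Ligation lies below sham in these 7, as 58.1% of pairs of any tested gene with a guardian do, and pairs of Bnip3 and Pmaip1, of which 4 were above sham, are not plotted.

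Beyond the 10 members, 15 relatives were examined, of which 8 had enough counts to be tested. Bcl2l2 (BCL-W), another guardian, measured 45.0, 49.6 and 46.7 CPM in sham, 78.6, 81.8 and 67.9 in ligation, and 72.5, 72.96 and 77.8 with cells. It followed Bcl2, rising 1.61-fold after ligation (log2 fold change 0.69, SE 0.0784, edgeR adjusted p 5.56e-07) and standing 1.58-fold above sham with cells. Bok, an effector-like relative of Bax, rose by 0.51 on the log2 scale after ligation (SE 0.123, edgeR adjusted p 0.00238), from 15.4 ± 1.23 to 21.8 ± 2.21 CPM (SD, n = 3), and was at 17.9 ± 0.715 with cells. Bnip3l (NIX), the mitophagy receptor closest to Bnip3, went from 86.3 ± 5.31 to 98.96 ± 3.84 CPM. Its call after ligation (log2 fold change 0.19, edgeR adjusted p 0.0264) was lost in 6 of 20 alternative fits, among them those without sham replicate 2, ligation replicate 1 or ligation replicate 2. Its call for cells against sham (0.18, edgeR adjusted p 0.0391) was lost in 9 of 20.

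Bcl2l13, a mitophagy receptor as well, measured 49.4 ± 1.54 CPM in sham hearts and 62.5 ± 5.95 in the cell group (log2 fold change 0.34, edgeR adjusted p 0.00135). It overlaps Bid on the opposite strand over 628 bases, which is 17.7% of the exon bases of Bid. The BH3-only gene Bmf was lower with cells than in ligation (10.1 ± 1.04 against 14.004 ± 1.16 CPM, log2 fold change -0.47), but at an edgeR adjusted p of 0.0471 the call was lost in 12 of 20 alternative fits. Bcl2l12 was lower with cells than in sham (2.97 ± 0.0857 against 4.88 ± 0.640 CPM, edgeR adjusted p 0.0346), a call lost in 9 of 20. Bad and Bik did not pass in any comparison. Among relatives too scarce to test, Hrk had 0.952 to 1.78 CPM in sham and at most 0.555 in the other groups, and Bcl2a1d had 0 to 0.712 in sham, 1.25 to 1.88 in ligation and 0.277 to 1.152 with cells. The Bcl2a1 copies share 79.6% to 89.1% of their 31-base words, so their counts are uncertain to that extent. Bcl2a1a, Bcl2a1b, Bcl2l10, Bcl2l14 and Bcl2l15 stayed under 1 CPM in every library.

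Downstream of the family, 5 of 8 genes for release factors and pore components fell and 0 rose after ligation (median log2 fold change -0.31), beside 18% of all genes called lower. In the cell group 5 of 8 were lower than in sham as well (-0.22), beside 20% of all genes. DESeq2 called 4 of the 8 lower in that comparison, and the Endog call there was lost with library totals. Htra2 and Aifm1, a released protease and a flavoprotein, were at 0.06 and 0.04 after ligation and were not called. Diablo (SMAC, which relieves caspase inhibition) fell by 0.45, Endog by 0.58 and Vdac2, an outer-membrane channel that holds Bak1, by 0.38 on the log2 scale after ligation, the largest edgeR adjusted p being 0.000109. Cycs (cytochrome c) went from 1443 ± 57.9 to 1082 ± 47.996 CPM (-0.42, edgeR adjusted p 9.30e-08). Of the caspase and apoptosome genes named here, Casp12 was higher (0.45, edgeR adjusted p 0.000634), while Casp9 and Apaf1 were not called. For cells against ligation, 0 of the 8 release and pore genes were called by edgeR, DESeq2 or limma-voom, and 0 of 8 had an unadjusted p under 0.05 in edgeR. Diablo, Endog and Cycs share 39.6%, 34.1% and 29.4% of their 31-base words with other genes. Ligated hearts had 45705 to 48370 CPM over 8 cardiomyocyte genes against 58885 to 60816 in sham. Of the 8, 6 were called lower after ligation, from Actc1 at -0.09 to Tnni3 at -0.95, Tnnt2 was not called and Ryr2 was called higher at 0.36. The part of these changes in the lower mitochondrial genes was not tested. In tissue RNA, fewer cells of a type cannot be told apart from less RNA per cell.

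Genes that steer the family were mixed. Of 15 genes of the p53 axis, 7 rose and 3 fell after ligation, beside 20.1% and 18% of all genes. Among those that rose were the p53 targets Zmat3 (0.59), Phlda3 (0.58) and Ccng1 (0.38), all with an edgeR adjusted p of at most 0.000504, while the Trp53 transcript was at 29.1 ± 6.25, 25.2 ± 2.18 and 23.3 ± 3.30 CPM in sham, ligation and cells. Mdm4, a p53 inhibitor, fell by 0.54 and Perp by 0.32, but the latter call was lost with library totals. Ei24 was called lower at -0.19 (edgeR adjusted p 0.0423) and kept that call in only 11 of 20 alternative fits. DESeq2 called 6 of the 15 genes higher and 2 lower after ligation. Of the members that are textbook p53 targets, Pmaip1 was called higher after ligation, while Bax and Bbc3 were not. Ccng1 rose further with cells (0.19, edgeR adjusted p 0.0138), a call lost without ligation replicate 2 or 3. Of 9 upstream transcription factors, Hif1a (0.73, edgeR adjusted p 2.97e-08) and Foxo4 (0.50, edgeR adjusted p 1.78e-05) were among 4 that rose after ligation, and Foxo1 was called lower at an edgeR adjusted p of 0.0478, a call lost in 17 of 20 alternative fits. Jun rose with cells against ligation (0.68, edgeR adjusted p 3.54e-07), from 79.3 ± 5.34 to 126.8 ± 2.06 CPM, and E2f1 fell, a call lost without ligation replicate 2 or cell replicate 3.

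Mitophagy partners of Bnip3 went in both directions after ligation. Gabarapl1, a protein of the autophagosome membrane, and Sqstm1, a cargo receptor, rose by 0.50 and 0.45 on the log2 scale. Pink1, a kinase that senses damaged mitochondria, fell by 0.47 and Phb2, an inner-membrane mitophagy receptor, by 0.44, with edgeR adjusted p-values of at most 1.89e-05 for these 4 genes. The 4 calls also held for cells against sham. With cells against ligation, Optn, another cargo receptor, was called higher (0.27, edgeR adjusted p 0.0135), and not without ligation replicate 3 or cell replicate 2.

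Of 7 tested inhibitor of apoptosis genes, 1 was called higher and 1 lower after ligation and 2 lower with cells than in ligation. Of 9 tested death-receptor genes the numbers were likewise 1, 1 and 2. All genes tested gave 20.1%, 18% and 5.69% for these calls. Birc5 (survivin), also a mitosis gene, had 0.546 ± 0.332 CPM in sham, 2.13 ± 0.237 in ligation and 0.471 ± 0.0728 with cells. It was called higher after ligation (edgeR adjusted p 0.00444) and lower with cells than in ligation (edgeR adjusted p 0.00690). Its sham and cell values were near the limit of detection, since 3 counts equalled 0.416 to 0.534 CPM in those libraries. Xiap, the main direct caspase inhibitor, fell by 0.23 after ligation (edgeR adjusted p 0.00979), a call lost with library totals. Tnfsf10 (TRAIL), a death ligand, was at 72.1 ± 4.69 CPM in sham hearts, 37.5 ± 3.69 after ligation and 28.9 ± 1.95 in the cell group, lower in both (-0.95 and -1.32 against sham, edgeR adjusted p 1.78e-08 and 1.57e-10). Tnfrsf1a, a TNF receptor, was at 114 ± 7.48 CPM in ligation and 91.6 ± 4.41 with cells (-0.32, edgeR adjusted p 0.00251). Naip5, an inflammasome sensor, was lower with cells than in ligation as well (-1.60, edgeR adjusted p 0.0103), but it shares 53.1% of its 31-base words, and the call was lost without ligation replicate 3 or cell replicate 1. Of the MCL1 turnover list, Fbxw7, part of a ligase that marks MCL1 for destruction, fell by 0.47 after ligation (edgeR adjusted p 0.000260), and Usp13, which removes that mark, rose by 0.20 (edgeR adjusted p 0.00869), a call lost with header names summed.

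**Figure D4:**
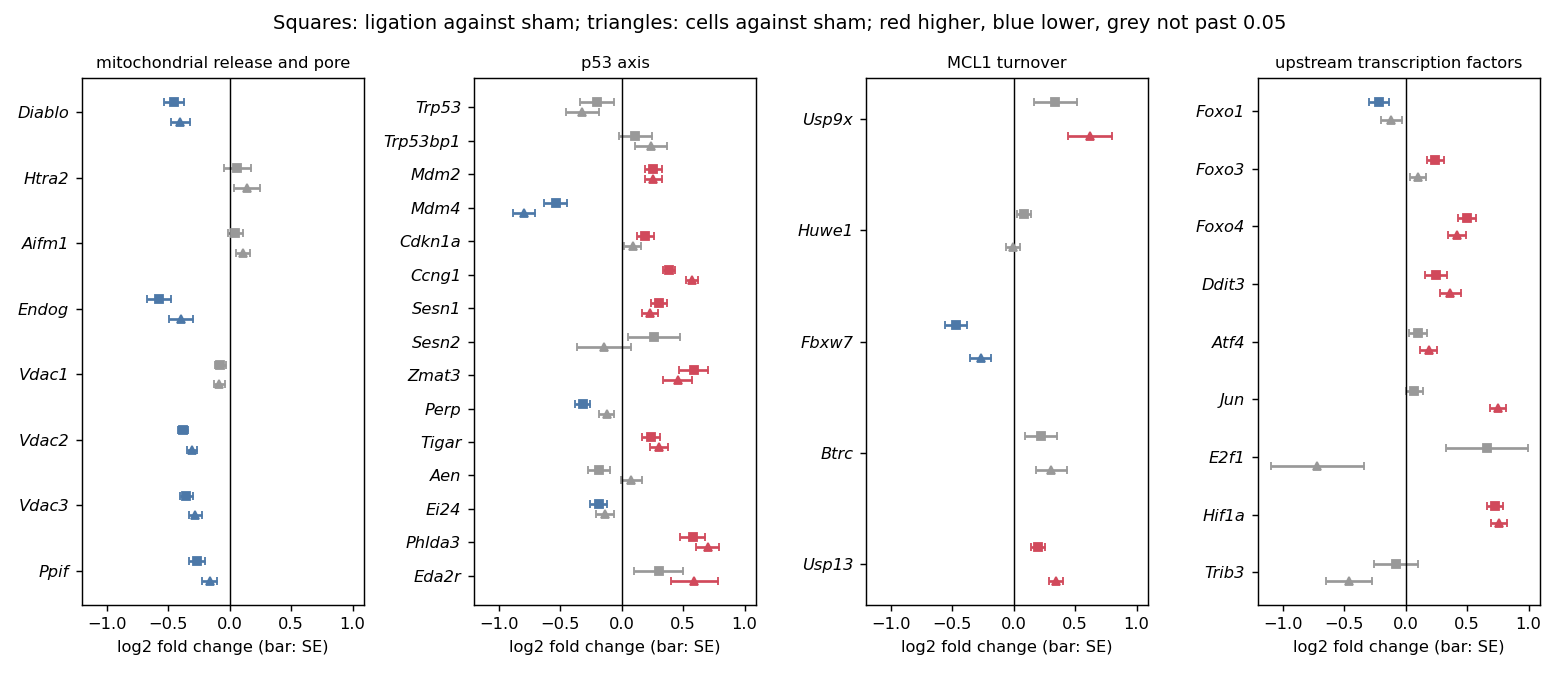
Log2 fold changes with SE (x axis) of the genes of 4 pathway lists, for ligation against sham (squares) and cells against sham (triangles). The called genes of the mitochondrial release list are all lower, with list medians of -0.31 and -0.22, while the p53 and MCL1 turnover lists hold called genes in both directions.

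Several cell type markers moved between the groups beside the members. Over 8 macrophage and monocyte genes the summed level was 339 to 373 CPM in sham, 549.7 to 578 in ligation and 221 to 224 with cells, and 8 of 8 were called higher after ligation and 8 of 8 lower with cells than in ligation. Over 5 erythroid genes it was 871 to 919, 1496 to 1595 and 663 to 679.6 CPM, with 4 of 5 called higher and 1, Hba-a2, lower after ligation. Over 4 atrial cardiomyocyte genes it was 474 to 564, 841 to 1608 and 1569 to 2178 CPM, where the higher sum after ligation was that of Nppa (107 ± 34.4 to 895 ± 369 CPM), a hormone gene that stressed ventricles also express. The other 3 genes, Myl7, Sln and Myl4, were called lower after ligation and higher with cells than in ligation, among them Myl4, an atrial myosin light chain, at 144 ± 14.1 CPM in ligation and 498 ± 6.999 with cells. Cycling genes summed to 3.74 to 9.21, 19.4 to 22.4 and 5.76 to 7.21 CPM. The libraries of the cell and ligation groups thus differed in atrial, macrophage, erythroid and cycling transcripts as well as in Bcl2l1 and Bnip3. Bcl2l1, Bnip3 and Pmaip1 were highest in ligation, as the macrophage, erythroid, cycling and fibroblast sums were and the atrial sum was not. With cells, Bnip3 and the fibroblast sum stayed above sham, while the macrophage and erythroid sums lay below it. The part of macrophages, red cells, atrial tissue, cycling cells or fibroblasts in these values was not tested. The fibroblast list was at 2145 to 2205 CPM in sham, 4094 to 4200 in ligation and 3800 to 3896 with cells. It was above sham in both ligated groups, as Bcl2, Mcl1 and Bnip3 were. After ligation 5 of its 7 genes were called higher and 1, Pdgfra, lower. The part of fibroblasts in the values of Bcl2 and Mcl1 was not tested either. The endothelial list was lower in both ligated groups (1868 to 1973, 1242 to 1310 and 1369 to 1409 CPM). Lymphocyte and NK markers summed to at most 3.33 CPM in any library, and neutrophil markers to 37.9 to 45.2 CPM in sham and at most 20.98 elsewhere.

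**Figure D5:**
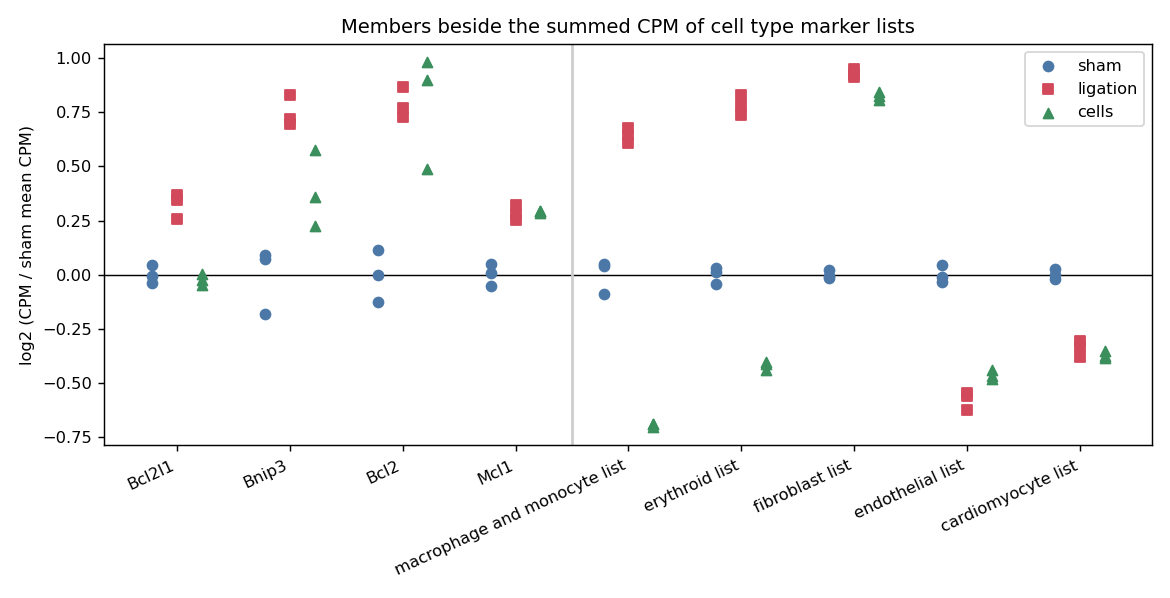
Log2 of CPM over the sham mean (y axis) in each of the 9 libraries for 4 members, left of the grey line, and for the summed CPM of 5 cell type marker lists, right of it. Bcl2l1, Bnip3 and the macrophage and monocyte, erythroid and fibroblast lists are higher in ligation than with cells. Bcl2, Mcl1, Bnip3 and the fibroblast list are above sham in both ligated groups.

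The genes most like a member over the 9 libraries were taken, by Pearson's r of log2(CPM + 1), from 9413 other genes with a mean of at least 10 CPM, for the 4 members called in at least 2 comparisons. Nearest to Bcl2l1 were Ctss, Emilin1 and Fcgr1 (r = 0.976, 0.972 and 0.970), of which Ctss and Fcgr1 are macrophage genes. Nearest to Bnip3 were Cst3, S100a6 and Vim (r = 0.976, 0.972 and 0.971). Those nearest to Mcl1 were Masp1, Prkab2 and Col14a1 (r = 0.990, 0.990 and 0.989), and to Bcl2 they were Wdr13, Slc12a4 and Abcf1 (r = 0.978, 0.978 and 0.973). Among the members themselves the highest r was 0.882, between Bcl2 and Mcl1, followed by 0.805 between Bax and Bak1, while Bcl2 and Bak1 were at -0.68. All points share library scaling and group differences, so these are descriptions only.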

How the data were processed

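For each library the authors deposited a table of unnormalised gene counts, with genome build mm10 per the submitters' processing notes. Aligner, counter, strand setting and annotation release are not given in the sources used here. Libraries were made from TRIzol-extracted total RNA with an NEBNext Ultra kit, per the labels' protocols. Each file ends in 5 lines that name no gene and stayed out of all sums; reads outside genes were 4.14% to 4.91% and ambiguous reads 8.09% to 8.72% of reads listed. Symbols were found for 53274 of 53465 IDs with GENCODE M21, which also gave exon lengths, overlaps and shared 31-base words.

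Counts were analysed in R 4.3.3 with edgeR 4.0.16: filterByExpr, TMM factors, 1 model with a mean for each of 3 groups (6 residual degrees of freedom), a quasi-likelihood test, and Benjamini-Hochberg adjustment over 13825 genes, two-sided, with 0.05 as the threshold. CPM uses TMM-scaled library sizes, and 3 counts equalled 0.375 to 0.639 CPM, which covers counting error only. SE is the log2 fold change divided by the square root of F. Alternatives used DESeq2 1.42.0 and limma 3.58.1 as well. On simulated data of 13825 genes for ligation against sham, 181 of 200 genes changed by 1 on the log2 scale were recovered, with 12 false calls. Figures were drawn with matplotlib 3.10.9.

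Members and gene lists were chosen with earlier results of these data known, and no list was tested as a set. Named are all 10 members, their relatives, and from each of 8 other lists at most 3 genes per direction and comparison, the largest changes among called genes with a mean of at least 1 CPM; Trp53, Casp9, Apaf1, Htra2, Aifm1 and single marker genes were named after their values were seen, and some genes that the rule takes are not reported here. Summing libraries of 1 header name was an alternative chosen after seeing the data.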

Additional observations from a re-analysis of the deposited data

How the results depend on the processing

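Under 20 alternative fits, the 11 calls of members kept their direction and their side of the threshold in 217 of 220 cases; the 3 exceptions are those of Pmaip1 and Bnip3 given above. Leaving out 1 library at a time called 4 to 6 members for ligation against sham, 1 to 3 for cells against ligation (1 without cells replicate 3) and 4 for cells against sham, and 4482 to 5459, 951 to 1398 and 5055 to 5746 genes. Scaling by library totals turned Bax (0.0348), Bak1 (0.12), Bcl2l11 (0.0428) and Ei24 (0.00132) positive for ligation against sham. The same scaling gave Bcl2 -0.0173, Mcl1 -0.0221 and Bad -0.0298 for cells against ligation, and Bcl2l1 0.14 and Bcl2l11 0.13 for cells against sham. The other sign changes were in values near 0 for cells against ligation: Mcl1 (-0.00513) and Bad (-0.0115) with upper-quartile factors, Bcl2 (-0.00582) with limma-voom, and Bbc3 (0.00222) and Bad (-0.00302) with DESeq2. Bad also gave -0.00152 with a mean of at least 1 CPM, -0.00217 with only the 2 groups and -6.87e-05 without mitochondrial genes. With libraries of 1 header name summed, Mcl1 gave -0.00127, Bbc3 0.0266 and Bad -0.0432. When single libraries were left out, cells against ligation ran from -0.0841 to 0.149 for Bcl2, -0.00788 to 0.0236 for Mcl1, -0.168 to 0.207 for Bbc3, -0.109 to 0.0295 for Bcl2l2, -0.141 to 0.134 for Bad, -0.384 to 0.199 for Bik and -0.0520 to 0.0193 for Bnip3l, and cells against sham from -0.138 to 0.0849 for Bcl2l11. The cause of these changes was not tested.

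Deviations of libraries with the same replicate number had r = 0.120, 0.0555 and -0.119 for ligation against sham over 9414 genes and lay between -0.0788 and 0.0607 in the other comparisons, so the numbers were not taken to pair samples. With the replicate number as a block, 5134, 1230 and 5511 genes and 5, 2 and 4 members passed, and Bbc3 (0.0102) and Bad (-0.0110) changed sign for cells against ligation. Depth limits Bid, Pmaip1 and the untested relatives, which had few counts.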
